A study of Mus musculus with 6 samples.

Results

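The genes described here are *S100a8*, *S100a9*, *Csf3r*, *Retnlg*, *Lcn2*, *Ngp*, *Camp*, *Ltf*, *Fpr1* and *Trem1*, which encode proteins of the granules, cytosol and surface of neutrophils. They are 10 of the 17556 genes in the deposited table and were taken from it by gene symbol. They were chosen because 1 of the ventricles, Cre negative replicate 1, was already known to have high levels of neutrophil genes. Their levels in that ventricle are therefore given as a description and without a test.

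Bulk RNAseq was carried out on left ventricles of 6 mice. All 6 mice carried floxed alleles of Yap (both copies) and Wwtr1 (1 copy), were 6 to 10 weeks of age, had the left anterior descending artery permanently ligated, and were fed tamoxifen citrate from the time of surgery until the tissue was taken at 4 days post injury (dpi). The 3 Cre positive mice also carried MerCreMer at the endogenous periostin (*Postn*) locus, a tamoxifen inducible Cre that acts in myofibroblasts, and the 3 Cre negative mice were siblings with a wildtype *Postn* locus. The floxed copies, which leave 1 copy of Wwtr1, are removed only in cells that switch on *Postn* in this model, and Cre positive mice differ from their siblings in 1 copy of *Postn* as well. All 6 hearts were injured. The estimated counts summed to between 13177888 and 14827579 per ventricle.

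The targeted genes gave no check of the labels in whole tissue. *Yap1* was at 45.0 ± 1.14 TPM (SD, n = 3; TPM is a level scaled to transcript length and library size) in Cre negative and 49.5 ± 1.04 TPM (SD, n = 3) in Cre positive ventricles, and *Wwtr1* at 40.8 ± 2.40 and 45.7 ± 1.72 TPM (SD, n = 3 each). On the counts, edgeR's quasi-likelihood test put the log2 fold change at 0.03 with a standard error of 0.09 for *Yap1* (adjusted p = 0.935) and at 0.05 with a standard error of 0.08 for *Wwtr1* (adjusted p = 0.876). *Postn*, the locus that carries the Cre, was at 452, 1015 and 1112 TPM in Cre negative replicates 1, 2 and 3 and at 526, 636 and 586 TPM in the Cre positive ventricles. The library labelled Cre negative replicate 1 was thus below every Cre positive ventricle, while Cre negative replicates 2 and 3 were above them all. By edgeR's quasi-likelihood test *Postn* was at −0.66 on the log2 scale (standard error 0.27, adjusted p = 0.714) with all 6 ventricles and at −0.94 (0.08, adjusted p = 0.0182) without that library, and what sets its *Postn* level was not tested. Of the pairs of libraries, those with Cre negative replicate 1 differed the most, with a chi-square of their counts per gene of 42.5 to 65.6 against 7.86 to 16.5 for the other pairs. That ventricle stood apart from the other 5, so genotype comparisons of the 10 genes and of the lists of neutrophil genes that turn on it are given with and without it.

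Neutrophils are short-lived white blood cells that enter the infarct early and are followed by monocytes and macrophages. They are made in the bone marrow, where granule proteins are transcribed in sequence. Enzymes of the azurophil granules, such as myeloperoxidase, are made by the most immature cells. Proteins of the specific granules, such as lactoferrin (*Ltf*), cathelicidin (*Camp*), neutrophilic granule protein (*Ngp*) and lipocalin 2 (*Lcn2*), are made next. The receptors and the calprotectin subunits *S100a8* and *S100a9* are abundant in mature cells. *Lcn2* is also made by other cells of inflamed tissue, and *Csf3r*, *Fpr1* and *Trem1* are also found on monocytes. In RNA of a whole ventricle, fewer cells of a type cannot be told apart from less RNA of that type per cell.

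Positions are those of RefSeq on GRCm38.p6, the build named in the submitters' processing notes. *S100a8* (gene number 20201) lies at chr3:90669071-90670034 and *S100a9* (20202) at chr3:90692630-90695721, with 22595 bases between them. The specific granule genes *Camp* (12796, chr9:109847377-109849456), *Ngp* (18054, chr9:110419808-110423012) and *Ltf* (17002, chr9:111019292-111042766) lie on chromosome 9 in that order, with 570351 bases between *Camp* and *Ngp* and 596279 between *Ngp* and *Ltf*. *Fpr1* (14293, chr17:17876471-17883939) and *Trem1* (58217, chr17:48232713-48246927) share chromosome 17. *Lcn2* (16819, chr2:32384637-32387739), *Csf3r* (12986, chr4:126023441-126044975) and *Retnlg* (245195, chr16:48872608-48874498) each lie on a chromosome of their own.

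The 120 bases upstream of the start in the RefSeq promoter table are shown for 3 genes that varied widely between ventricles (*S100a8*, *Ngp* and *Ltf*), for the most abundant gene (*Lcn2*) and for the receptor *Csf3r*, whose levels went the other way. They run 5′ to 3′ on the strand of the gene, and capitals mark letters of the TATA box, of C/EBP and of PU.1, factors of granulocyte genes. For *Csf3r* that start, 126024659, lies 1218 bases inside the outer bounds of the gene given above, so the stretch belongs to a transcript that starts later. These 3 motifs were searched as TATAAA, TTNNGNAA and GAGGAA on both strands.
S100a8, chr3:90668951-90669070, plus strand: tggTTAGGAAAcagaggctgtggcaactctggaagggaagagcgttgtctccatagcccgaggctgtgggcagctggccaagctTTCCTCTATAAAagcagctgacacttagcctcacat
Ngp, chr9:110419688-110419807, plus strand: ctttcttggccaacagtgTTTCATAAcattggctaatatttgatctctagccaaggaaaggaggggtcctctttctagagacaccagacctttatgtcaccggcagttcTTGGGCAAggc
Ltf, chr9:111019172-111019291, plus strand: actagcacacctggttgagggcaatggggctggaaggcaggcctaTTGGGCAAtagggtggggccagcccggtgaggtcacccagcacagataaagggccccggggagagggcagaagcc
Lcn2, chr2:32387740-32387859, minus strand: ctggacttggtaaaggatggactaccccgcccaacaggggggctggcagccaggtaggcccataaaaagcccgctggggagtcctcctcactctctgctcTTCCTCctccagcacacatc
Csf3r, chr4:126024539-126024658, plus strand: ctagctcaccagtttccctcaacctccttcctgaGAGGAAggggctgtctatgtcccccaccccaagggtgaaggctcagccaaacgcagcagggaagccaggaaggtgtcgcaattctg

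*Ngp* and *Ltf* share the C/EBP match TTGGGCAA, which starts 11 bases before the start of *Ngp* and 75 bases before that of *Ltf*. In *S100a8* the PU.1 letters at 36 bases and the TATA box at 30 bases before the start stand side by side without overlap. Over 250 bases upstream, 8 of the 10 genes had C/EBP letters, against 36.8% of 32851 RefSeq promoters. The 2 without them were *Csf3r* and *Camp*. PU.1 letters were found in 5 of the 10 against 23.3% of promoters, and TATAAA in 2 of the 10 against 12.4%. These matches describe the sequence and are not evidence of binding.

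The levels of the granule and secreted genes differed widely between single ventricles, and the highest values lay in Cre negative replicate 1. The 10 genes together took 969 TPM in that ventricle, 149 TPM in Cre negative replicate 2 and 79.0 TPM in Cre negative replicate 3. In the Cre positive ventricles they took 260.5, 94.6 and 198.6 TPM in the order of the replicate numbers. By normalized count 7 of the 9 genes that passed the filter on low counts were highest there, where 30.8% of all genes that passed it were, and 5 of 9 were over 2-fold above every other ventricle, where 0.586% were. These values chose the genes, and nothing is read from them. The sum of the 3 receptor genes did not share this spread, at 19.0 TPM in Cre negative replicate 1 and between 22.4 and 30.6 TPM in the other 5 ventricles. Most of that sum was *Csf3r*, at 12.3 TPM in Cre negative replicate 1, while *Fpr1* alone was highest there, at 4.85 TPM.

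**Figure D1:**
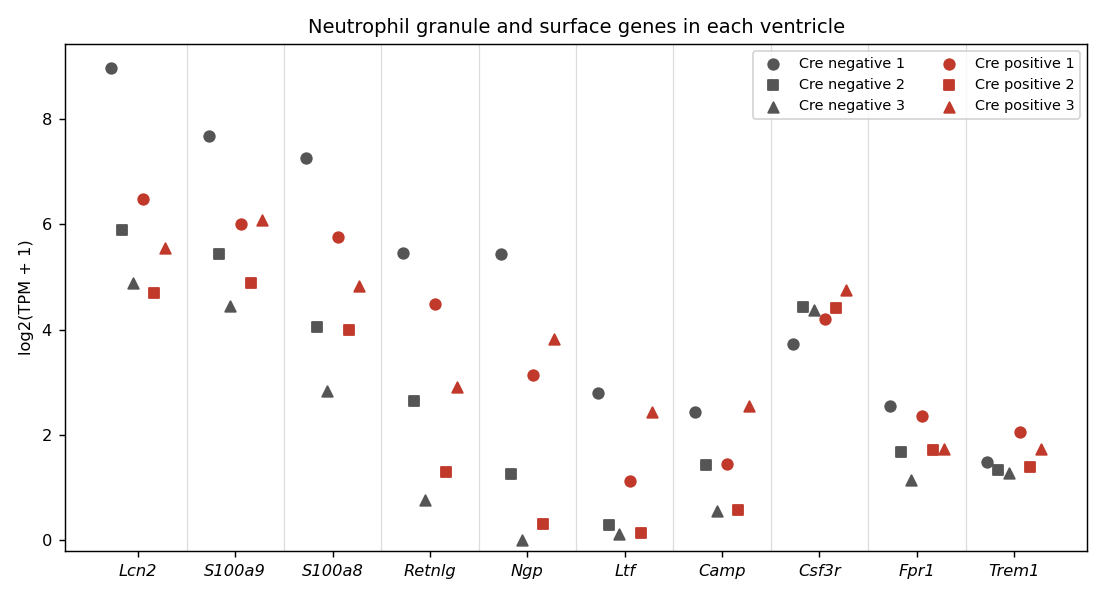
Level of each of the 10 genes as log2(TPM + 1), with 1 point per ventricle, in grey for Cre negative and red for Cre positive, and the marker shape giving the replicate number. *Lcn2* spans 28.4 to 499.7 TPM in Cre negative ventricles, while *Csf3r* stays between 12.3 and 25.95 TPM in all 6.

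*S100a8* and *S100a9* encode the subunits of calprotectin, a calcium- and zinc-binding alarmin that fills the neutrophil cytosol. *S100a8* was at 152, 15.6 and 6.12 TPM in Cre negative replicates 1, 2 and 3 and at 53.1, 14.8 and 27.25 TPM in Cre positive replicates 1, 2 and 3. *S100a9* was at 203, 42.5 and 20.8 TPM in the Cre negative and 63.0, 28.5 and 66.1 TPM in the Cre positive ventricles. For both genes Cre negative replicate 1 was above every other ventricle and Cre negative replicate 3 below every other, so the genotypes overlapped. *S100a8* had 3.26 times the normalized count of the next highest ventricle in Cre negative replicate 1 and *S100a9* 3.64 times.

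*Lcn2*, a siderophore-binding protein of the specific granules, was the most abundant of the genes per length in every Cre negative ventricle and in Cre positive replicate 1, and *S100a9* was in the other Cre positive ventricles. *Lcn2* was at 499.7, 58.2 and 28.4 TPM in the Cre negative ventricles and at 87.8, 24.95 and 45.7 TPM in the Cre positive ventricles. Cre negative replicate 1 had 6.41 times the normalized count of the next highest ventricle, the widest such gap among the 10 genes. *Lcn2* made up 51.6% of the summed TPM of the 10 genes there and between 23.0% and 39.1% in the other ventricles.

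*Ngp* and *Camp* encode cathelicidin family proteins and *Ltf* an iron-binding protein, and all 3 are made by developing neutrophils. *Ngp* had 340, 12 and 0 counts in the Cre negative ventricles and 66, 2 and 108 counts in the Cre positive ventricles, which is 42.2, 1.39 and 0 TPM and 7.79, 0.24 and 13.1 TPM. *Ltf* had 118, 5 and 2 counts in the Cre negative and 25, 2 and 90 counts in the Cre positive ventricles. *Camp* had 17, 7 and 2 counts in the Cre negative and 7, 2 and 19 counts in the Cre positive ventricles. These genes were high in both Cre negative replicate 1 and Cre positive replicate 3 and at 0 to 2 counts in Cre negative replicate 3 and Cre positive replicate 2, so the genotypes overlapped.

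The count of 0 for *Ngp* in Cre negative replicate 3 has an exact 95% Poisson upper limit of 3.69 counts, and the floor of 3 counts is 0.207 CPM (counts scaled to library size) there. The 2 counts of *Ltf* or *Camp* in 1 ventricle have an exact 95% Poisson interval of 0.242 to 7.22, so that levels this low cannot be ordered. These limits cover counting error only. Of the genes with at least 12 counts in every ventricle, the highest normalized count was 28.1-fold above the lowest for *S100a8*, 24.4-fold for *Lcn2*, 4.54-fold for *Fpr1* and 1.73-fold for *Csf3r*.

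*Retnlg*, a resistin-like protein secreted by neutrophils, was at 43.0, 5.25 and 0.71 TPM in the Cre negative ventricles and at 21.3, 1.47 and 6.54 TPM in the Cre positive ventricles. Cre negative replicate 1 was again the highest, at 2.28 times the normalized count of Cre positive replicate 1. Its order over the 6 ventricles was that of *S100a8*.

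The receptors had narrower ranges. *Csf3r*, the receptor for the growth factor G-CSF, was at 12.3, 20.5 and 19.8 TPM in the Cre negative and at 17.4, 20.1 and 25.95 TPM in the Cre positive ventricles. It was lowest in the ventricle in which 7 of the other 9 genes were highest per length. Some of its counts were not whole numbers, so part of its reads was shared with another gene or transcript.

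*Fpr1*, a receptor for bacterial and mitochondrial formyl peptides, was at 4.85, 2.21 and 1.2 TPM in the Cre negative and at 4.10, 2.26 and 2.32 TPM in the Cre positive ventricles. *Trem1*, a receptor that amplifies inflammatory signals, was at 1.81, 1.52 and 1.44 TPM in the Cre negative and at 3.14, 1.62 and 2.34 TPM in the Cre positive ventricles. *Fpr1* was highest in Cre negative replicate 1, though by 1.33 times in normalized counts, and *Trem1* was highest in Cre positive replicate 1. Without Cre negative replicate 1 the TPM of these receptors did not overlap between genotypes, though by little, at 2.21 against 2.26 TPM for *Fpr1* and 1.52 against 1.62 TPM for *Trem1*. In normalized counts they did overlap. By that measure 0 of the 9 genes tested had all Cre positive ventricles above Cre negative replicates 2 and 3, where 12.1% of all genes tested did. *Fpr1* rested on 12 to 45 counts and *Trem1* on 31 to 73 counts per ventricle.

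Between genotypes, none of the genes was called different. Of the 10 genes 9 passed edgeR's filter on low counts, and *Camp* did not. By edgeR's quasi-likelihood test 0 of 9 had an adjusted p under 0.05, 0 of 9 had an unadjusted p under 0.05, and DESeq2's Wald test likewise called 0 of 9. The background was 0.00724% of the 13817 genes tested by edgeR, which is a single gene (*Gbp2b*, named here after its values were seen), 5.83% by its unadjusted p and 0.0362% by DESeq2. None of the 9 had all 3 Cre positive ventricles above or below all 3 Cre negative ones, against 7.55% and 6.85% of the genes tested. These counts come from the ventricles the genes were chosen on and carry no weight of their own.

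The direction of the genotype difference depended on Cre negative replicate 1. With all 6 ventricles the log2 fold changes of Cre positive over Cre negative were below 0 for 7 of 9 genes, with a median of −0.90, where the median of all genes tested was 0.006. The normalized count of *Lcn2* was 1302 ± 1804 (SD, n = 3) in Cre negative and 309 ± 199 (SD, n = 3) in Cre positive ventricles, a log2 fold change of −2.07 (standard error 1.05). *S100a8* was at −1.06 (standard error 1.08), *S100a9* at −0.94 (0.80), *Ngp* at −1.23 (1.56) and *Retnlg* at −0.90 (1.26). *Ltf* was at −0.31 (1.42) and *Fpr1* at −0.06 (0.56). *Csf3r* and *Trem1* had positive values, of 0.10 (0.19) and 0.49 (0.34).

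Without Cre negative replicate 1, 8 of 9 genes had log2 fold changes above 0 and the median was 0.70. *Ltf* was at 3.43 (standard error 1.36), *Ngp* at 3.26 (1.39), *Retnlg* at 1.66 (1.07) and *S100a8* at 1.48 (0.61). *Lcn2* went from −2.07 to 0.23 (0.50) and *S100a9* from −0.94 to 0.66 (0.42). *Trem1*, at 0.68 (0.37), kept its sign, and *Csf3r* was at −0.07 (0.15). Again 0 of 9 had an adjusted p under 0.05, where 0.0143% of 13995 genes did (*Gbp2b* and *Postn*), by edgeR's quasi-likelihood test with 2 Cre negative ventricles. An unadjusted p under 0.05 was found for 3 of 9 (*S100a8*, *Ngp* and *Ltf*), where 6.59% of all genes tested had one. Since the genes were chosen for being high in the ventricle left out, the direction of these values and this count are partly set by the choice and nothing is read from them.

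**Figure D2:**
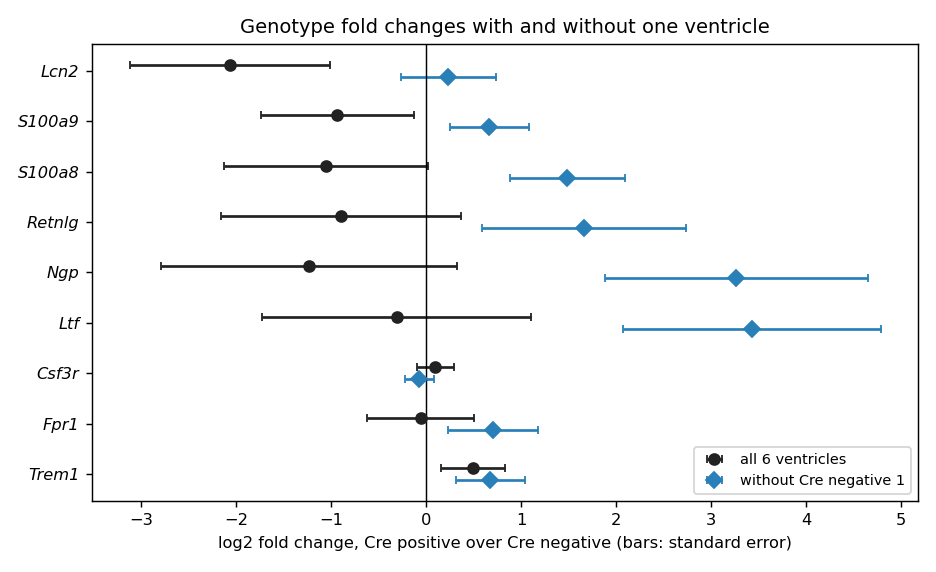
Log2 fold changes of Cre positive over Cre negative for the 9 genes that passed the filter, from edgeR, with all 6 ventricles (black circles) and without Cre negative replicate 1 (blue diamonds), and bars of 1 standard error. *Lcn2* moves from −2.07 to 0.23 and *Ngp* from −1.23 to 3.26, while *Csf3r* stays within 0.10 of 0.

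The sign of the difference also depended on the scale. The edgeR fit compares mean counts, in which the highest ventricle weighs most. As the difference of mean log2(TPM + 1), 7 of the 10 genes were higher in Cre positive ventricles with all 6 included, *S100a8* by 0.14 (4.85 against 4.71) and *Ngp* by 0.19, while *Lcn2* was lower by 1.01 (5.57 against 6.58). Of the genes tested, *Trem1* was above 0 on both scales and with each ventricle left out in turn (0.18 to 0.73), while the other 8 changed sign in the edgeR fit without Cre negative replicate 1.

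Within a ventricle the genes did not keep a fixed ratio. Cre positive replicate 3 stood out by *Ltf*, *Ngp* and *Camp*, which were high against *S100a8*, while *Lcn2* was not high against *S100a9*. *Ltf* had 90 counts there and *S100a8* 63, so that *Ltf* made up 58.8% of the counts of both (exact binomial 95% interval 50.6% to 66.7%). In Cre negative replicate 1 it made up 25.3% (21.4% to 29.5%) and in Cre positive replicate 1 16.6% (11.01% to 23.5%). In the other 3 ventricles it lay between 5.41% and 11.8% on 2 to 5 *Ltf* counts. The interval of Cre positive replicate 3 overlapped none of the others.

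*Ngp* and *Camp* had the same outlying ventricle. *Ngp* made up 63.2% of the counts of *Ngp* and *S100a8* in Cre positive replicate 3 (55.5% to 70.4%), 49.4% in Cre negative replicate 1 (45.6% to 53.2%) and 34.4% in Cre positive replicate 1 (27.7% to 41.6%). *Camp* made up 23.2% of the counts of *Camp* and *S100a8* in Cre positive replicate 3 (14.6% to 33.8%) and 4.66% in Cre negative replicate 1 (2.74% to 7.35%), though the first interval overlapped those of Cre negative replicates 2 and 3 and Cre positive replicate 2. *Camp* thus had about the same count, 17 and 19, in the 2 ventricles, where *S100a8* had 348 and 63. These intervals cover counting error within 1 library each and do not compare the genotypes.

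*Retnlg* was at 32.6% of its counts with *S100a8* in Cre negative replicate 1 (28.5% to 36.8%), 40.8% in Cre positive replicate 1 (34.2% to 47.8%) and 29.2% in Cre positive replicate 3 (20.1% to 39.8%). It was at 36.7% in Cre negative replicate 2 (24.6% to 50.1%), 16.7% in Cre negative replicate 3 (3.58% to 41.4%) and 14.6% in Cre positive replicate 2 (5.57% to 29.2%), the last below the interval of Cre positive replicate 1. *Lcn2* was in excess of *S100a9* in Cre negative replicate 1, with 81.2% of the counts of both (79.9% to 82.5%), against 54.9% in Cre positive replicate 3 (50.4% to 59.4%) and between 60.7% and 71.1% elsewhere. *S100a8* made up 34.4% and 37.0% of the calprotectin counts in Cre negative replicate 1 and Cre positive replicate 1, and between 17.0% and 26.5% in the other 4 ventricles.

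**Figure D3:**
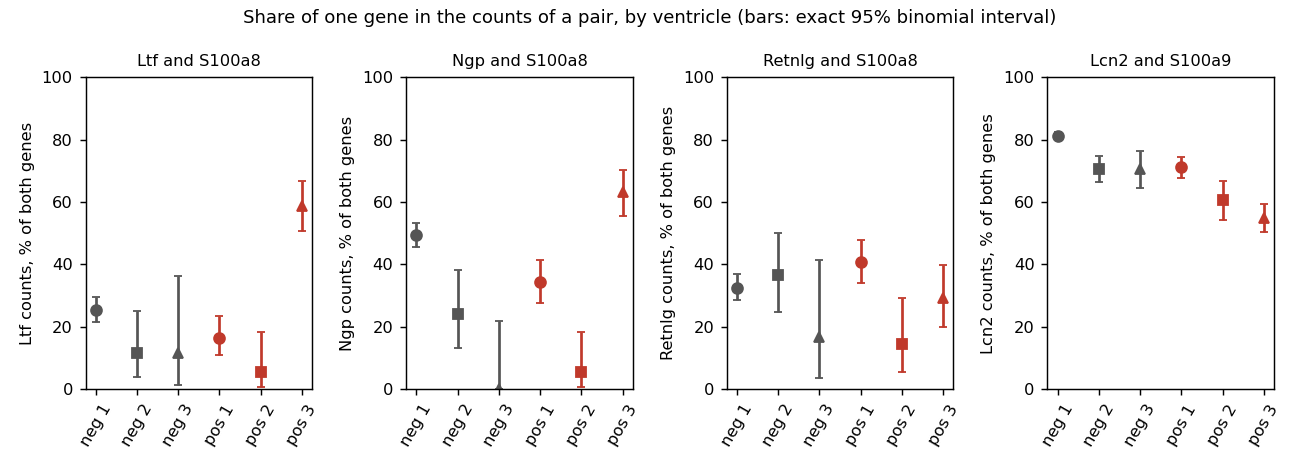
Share of *Ltf*, *Ngp* and *Retnlg* in the counts of each with *S100a8*, and of *Lcn2* in those with *S100a9*, in percent, 1 point per ventricle with its exact binomial 95% interval (grey for Cre negative, red for Cre positive). Cre positive replicate 3 has the highest share of *Ltf*, 58.8%, and of *Ngp*, 63.2%, and the lowest share of *Lcn2*, 54.9%.

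The label was checked against other neutrophil genes, of which 66 of the 68 listed were in the table and 48 passed the filter. Neutrophil-restricted genes were scarce. *Ly6g*, the surface antigen by which mouse neutrophils are sorted, had 15 counts in Cre negative replicate 1, 3 in Cre positive replicate 3 and 0 in the other 4 ventricles. The stefin A genes *Stfa2* and *Stfa2l1*, cysteine protease inhibitors of mature neutrophils, had 22 and 21 counts in Cre negative replicate 1 and at most 2 and 6 elsewhere. *BC100530* had 16 counts there and 0 in each of the other 5. Reads of the stefin genes, near-identical copies, can be divided between them by the counting.

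The azurophil granule genes did not share 1 highest ventricle. *Mpo*, encoding myeloperoxidase, had 5, 2 and 4 counts in the Cre negative and 17, 6 and 29 counts in the Cre positive ventricles, and *Elane*, neutrophil elastase, had 0, 0 and 4 counts and 1, 0 and 14 counts. Both were highest in Cre positive replicate 3, the ventricle with the high share of *Ltf* and *Ngp*. Neither passed the filter. *Prtn3*, proteinase 3, the most abundant of the 5 azurophil genes and the only one that did, had 75, 50 and 32 counts in the Cre negative and 82, 14 and 32 in the Cre positive ventricles and was highest in Cre negative replicate 1 in normalized counts. It was at −0.41 (standard error 0.64, adjusted p = 0.850 by edgeR's quasi-likelihood test) and at 0.06 (0.64) without that ventricle.

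The other granule genes had a median log2 fold change of −0.47 over 8 tested, with 0 called in either direction by edgeR, 0 at an unadjusted p under 0.05 and 0 by DESeq2. Without Cre negative replicate 1 the median was 0.09, with 0 called and 1 of 8 at an unadjusted p under 0.05, where 6.59% of all genes tested were. In normalized counts 7 of the 8 were highest in Cre negative replicate 1, as were 30.8% of all genes tested. The summed TPM of the list was not, at 425 there, 437 in Cre negative replicate 2 and 450 in Cre positive replicate 1. *Hp*, one of the 7, was at 159, 171 and 177 TPM in these ventricles. *Cd177*, a surface and granule antigen, had 105, 30 and 25 counts in the Cre negative and 32, 27 and 34 in the Cre positive ventricles. The collagenase *Mmp8* had 181, 83 and 92 counts against 107, 115 and 85, and the gelatinase *Mmp9* 309, 155 and 154 against 220, 190 and 208. *Pglyrp1*, a peptidoglycan-binding protein, was the lowest of the list at −0.97 (standard error 0.64), or −0.15 without that ventricle, and *Anxa1* the highest at 0.19 (0.12), or 0.07 without it. The gap between Cre negative replicate 1 and the rest was thus smaller for *Mmp8* and *Mmp9* than for *Lcn2* or *Ngp*.

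Of the 13 other surface receptors tested 2, *Cxcr2* and *Fpr2*, were highest in Cre negative replicate 1. Among those filtered out *Ly6g* and *Trem3* were highest there too, on 15 and 7 counts, and *Cxcr1* was not. The summed level of all 16 in the table was lowest there, as that of *Csf3r* was, at 251 TPM against 326 to 362 TPM in the other 5 ventricles. That sum rested on abundant genes such as *Itgb2*, *Selplg* and *Itgam*, at 50.1, 45.5 and 38.7 TPM there. *Cxcr2* was at 2.66 and *Fpr2* at 4.41 TPM there, so the sum need not follow receptors with few counts. *Cxcr2*, the chemokine receptor that guides neutrophils, had 53.1, 43.1 and 24.0 counts in the Cre negative and 35.5, 37.8 and 42.7 counts in the Cre positive ventricles. *Fpr2* had between 23 and 40 counts. The median log2 fold change of the list was 0.11 with 0 called by edgeR or DESeq2 and 1 at an unadjusted p under 0.05, *Clec4e* being the highest at 0.68 (standard error 0.25, adjusted p = 0.714 by edgeR's quasi-likelihood test) and *Fcgr4* the lowest at −0.21 (0.21). The 6 subunits of the NADPH oxidase, which macrophages share, had log2 fold changes from −0.15 (*Cyba*) to 0.20 (*Ncf4*), with 0 called by either tool and 0 at an unadjusted p under 0.05. Without Cre negative replicate 1 they were at −0.33 and −0.01, and 1 of the 6 had an unadjusted p under 0.05 and 0 were called by edgeR. Their summed level was 325 TPM in Cre negative replicate 1 and 455 to 563 TPM in the others.

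Among the 7 other neutrophil-enriched genes tested, *Asprv1* was the lowest at −1.36 (standard error 0.99), with 57 counts in Cre negative replicate 1 and 3 to 20 elsewhere, and was at 0.01 (0.88) without that ventricle. *Il1b*, the inflammatory cytokine, was the highest at 1.13 (0.31, adjusted p = 0.714 by edgeR's quasi-likelihood test). It was at 2.75, 2.95 and 4.79 TPM in the Cre negative and at 6.05, 7.65 and 11.1 TPM in the Cre positive ventricles. Cre negative replicates 1 and 2 were its lowest ventricles. In normalized counts all Cre positive ventricles lay above all Cre negative ones for 2 of the 7 genes (*Il1b* and *Mxd1*). The same held for 2 of the 13 surface receptors (*Clec4e* and *C5ar1*), where 7.55% of all genes tested did so. The median of this list was −0.10, and 0.21 without Cre negative replicate 1. Of its genes 0 of 7 were called by edgeR or DESeq2, and 1 had an unadjusted p under 0.05, or 2 without that ventricle, where 5.83% and 6.59% of all genes tested had one. These shares are also the background of the unadjusted counts of the other lists. *Cebpe*, the factor that drives specific granule genes in the marrow, had 4 to 7 counts in every ventricle and did not pass the filter, and the 4 factors that did ranged from −0.07 (*Cebpd*) to 0.06 (*Cebpb*), with 0 called and 0 at an unadjusted p under 0.05. Without that ventricle they ranged from −0.31 (*Cebpa*) to 0.03 (*Cebpd*), with 0 called and 1 at an unadjusted p under 0.05.

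The genes that recruit neutrophils summed to 93.3 TPM in Cre negative replicate 1, their lowest value, and to 99.6 to 143 TPM in the others, though *Cxcl1* was highest there in normalized counts. *Cxcl5*, a ligand of CXCR2, was at 6.71, 8.37 and 8.40 TPM in the Cre negative and at 17.5, 13.7 and 11.6 TPM in the Cre positive ventricles, or 0.76 on the log2 scale (0.20, adjusted p = 0.714 by edgeR's quasi-likelihood test). *Cxcl2* had 15, 11 and 12 counts in the Cre negative and 26, 23 and 17 in the Cre positive ventricles, at 0.68 (0.35). *Cxcl1* was at 0.01 (0.47), the lowest of the list, and *Cxcl3* at 1.03 (0.50), the highest, or at 0.43 and 0.65 without Cre negative replicate 1. *Csf3*, the gene of G-CSF, had 1 to 7 counts in every ventricle and did not pass the filter. All 9 genes of this list that were tested had log2 fold changes above 0, with a median of 0.46 and 0.43 without Cre negative replicate 1. By edgeR and DESeq2 0 of 9 were called, and 1 had an unadjusted p under 0.05. In normalized counts all Cre positive ventricles lay above all Cre negative ones for 3 of 9 (*Cxcl3*, *Cxcl5* and *Il6*), where 7.55% of all genes tested did so. *Cxcl2* did so in TPM and in counts before scaling, but not in normalized counts.

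Markers of other cell types moved with the granule genes in Cre negative replicate 1. The platelet markers summed to 46.2 TPM there and to 15.7 to 23.9 TPM in the other 5 ventricles, and the erythroid markers to 1533 TPM and to 779 to 1415 TPM. All 4 tested genes of each of these lists were highest there. The eosinophil and mast cell markers summed to 16.3 TPM there, 17.6 TPM in Cre positive replicate 1 and 5.83 to 10.6 TPM elsewhere, with *Prg2* and *Ccr3* at 0 to 5 counts. The summed cardiomyocyte markers were also highest there, at 43908 TPM against 32346 to 38830 TPM. *Myl2* was not, at 10382 TPM there and 12257 TPM in Cre negative replicate 3. In normalized counts all Cre positive ventricles lay below all Cre negative ones for 6 of the 8 markers, where 6.85% of all genes tested did so. Of these *Myl2*, *Tnni3* and *Pln* overlapped between genotypes in TPM.

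The summed markers of macrophages, fibroblasts, endothelial cells and T cells were lowest in that ventricle. The macrophage markers summed to 2205 TPM in Cre negative replicate 1 and to 2764 to 3459 TPM in the others, and none of the 10 was highest there. The fibroblast markers summed to 4367 TPM against 6272 to 8115 TPM, the endothelial markers to 351 TPM against 424 to 499.9 TPM and the T cell markers to 2.43 TPM against 3.17 to 9.88 TPM. Not every gene followed its sum, since *Dcn* of the fibroblast and *Kdr* of the endothelial markers were highest in Cre negative replicate 1 in normalized counts. The B cell markers were highest in Cre positive replicate 3, the ventricle with the high *Ltf* share, at 60.7 TPM against 7.22 to 41.6 TPM. Whether any of these cell types has a part in the levels of the granule genes was not tested.

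**Figure D4:**
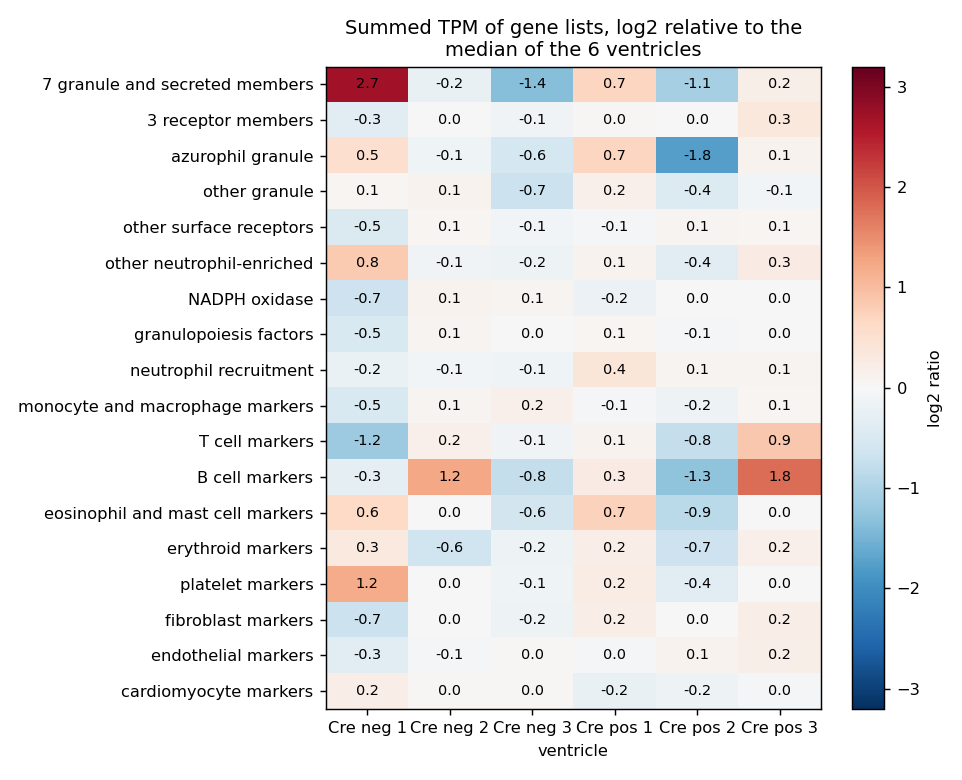
Summed TPM of the 7 granule and secreted genes, of the 3 receptor genes and of each list of other genes, as log2 of the ratio to the median of the 6 ventricles, 1 column per ventricle. The granule and secreted genes are 2.7 above the median in Cre negative replicate 1, where the platelet markers are 1.2 above and the macrophage markers 0.5 below; a sum is dominated by the most abundant genes of its list.

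The genes outside the 10 with the pattern nearest to the mean of the 9 tested genes were then ranked. Likeness was measured as the root mean square difference of log2 CPM, each gene being centred over the 6 ventricles, among 11987 other genes with a mean of at least 50 normalized counts. That minimum left out neutrophil genes with few counts, *Cd177*, *Pglyrp1*, *Prtn3* and *Asprv1* among them, so the ranking does not show whether such genes lie near. A gene with no variation would lie 1.23 away. The nearest was *Has1*, a hyaluronan synthase, at 0.41, with 135, 24 and 16 counts in the Cre negative and 131, 29 and 76 in the Cre positive ventricles. It was followed by *Nkain4* at 0.47, *Serpina3n*, an acute phase protease inhibitor, at 0.55, the erythrocyte anion exchanger *Slc4a1*, one of the erythroid markers, at 0.56, and by *Slc6a4*, *Prg4*, *Ppl*, *Cdo1*, *Cyp2s1* and *Lrg1* at 0.56 to 0.59. Of the genes described here *S100a9* was 0.27 from its own mean profile and *S100a8* 0.42, while *Csf3r* at 1.38 and *Ngp* at 1.51 were farther away than a gene with no variation. The distance also grows with the width of the range of a gene. *Ngp*, with 0 to 340 counts, had the order of *S100a9* over the 6 ventricles, while *Csf3r* was lowest in Cre negative replicate 1.

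Over the 5 ventricles without Cre negative replicate 1, the nearest were *Nkain4* (0.21), *Slc6a4* (0.24) and *Cyp2s1* (0.24), followed by *C3*, *Hoxa5*, *Ppl*, *Cpz*, *Osr1*, *Fras1* and *Upk1b* at 0.31 to 0.38. Of these 10, 4 were also among the nearest 10 with all 6 ventricles. *Nkain4* had 203, 87 and 38 counts in the Cre negative and 205, 79 and 175 in the Cre positive ventricles. Over these 5 ventricles its order was that of *S100a8*, with Cre positive replicate 1 the highest and Cre negative replicate 3 the lowest.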

How the data were processed

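The authors deposited an estimated read count and a TPM value (scaled by them to gene length and library) for each gene in each left ventricle. The submitters' processing notes name Bowtie2 2.2.5, RSEM 1.2.12 and GRCm38.p6, and the annotation is not given in the sources used here. Of the deposited expected counts 11.5% were not whole and were rounded. A deposited comparison of the genotypes (log2 fold changes, p- and q-values) was not used.

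Genes were filtered by filterByExpr (minimum count 10, minimum total 15), which left 13817, scaled by TMM and compared by edgeR 4.0.16 (R 4.3.3) quasi-likelihood tests, with Benjamini-Hochberg adjustment over all genes and a threshold of 0.05. Each standard error is the log2 fold change over the root of F. Counts called normalized were scaled by TMM to the mean effective library. DESeq2 1.42.0 and scipy 1.17.1 were also used. The fit was tested on simulated data. The labels call the mice siblings and tie no replicate to a litter or day, so p-values measure only the spread between these samples. The genes and lists were chosen with earlier results of these data known. Genes named besides the 10 are those with a set role, the highest and lowest tested of each neutrophil list, the nearest patterns, and others chosen after their values were seen (*Cd177*, *Hp*, *Cebpa*, *C5ar1*, *Cxcr1*, *Trem3*, *Itgb2*, *Selplg*, *Itgam*, *Mxd1*, *Il6*, *Dcn*, *Kdr*, *Myl2*, *Tnni3*, *Pln*, *Prg2*, *Ccr3*, *Stfa2*, *Stfa2l1* and *BC100530*). Sequences are from RefSeq (GRCm38.p6), where all 10 genes matched.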

Additional observations from a re-analysis of the deposited data

How the results depend on the processing

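The number of genes called between genotypes was 1 with all ventricles (*Gbp2b*), 5 with DESeq2's Wald test (*Gbp2b*, *Gm4724*, *Plod2*, *Rpl34-ps1* and *Zfp965*, named after their values were seen) and 0 with a replicate block, where 1217 genes had an unadjusted p under 0.05. With 1 ventricle left out at a time it lay between 0 and 2, at 2 without Cre negative replicate 1 (*Gbp2b* and *Postn*) and 0 without Cre negative replicate 3 or Cre positive replicate 1 or 3. None of the 10 neutrophil genes and none of the other listed neutrophil genes was called in any of the 12 edgeR and DESeq2 settings. The median log2 fold change of the neutrophil genes was −0.90. It was −0.26 with the replicate block and −0.60 with no filter, ranged from −1.15 to 0.70 when each ventricle was left out (0.70 without Cre negative replicate 1, −0.13 without Cre positive replicate 2), and was 0.14 on the log2(TPM + 1) and 0.23 on the log2(TPM + 0.1) scale. Deviations of log2 CPM from the mean of the genotype were correlated across genes between ventricles of the 2 genotypes. Same-numbered ventricles gave 0.354, 0.073 and −0.032. Unlike-numbered ones gave −0.368 to 0.354, so the numbers were not taken as pairs. Depth limits *Camp*, *Ltf* and *Ngp* most, with 0 to 2 counts in some ventricles.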
